A study of Saccharomyces cerevisiae with 11 samples.

Results

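Yeast adjusts a set of genes to the oxygen supply, most of them raised when oxygen runs low, and 10 genes of this system are described here gene by gene. They are ROX1, which encodes the repressor of the system and is itself made in air, the heme synthesis gene HEM13, the translation factor gene ANB1, the cell wall genes DAN1, TIR1, TIR2, TIR3 and TIR4, and the mitochondrial genes AAC3 and CYC7. Members were taken by name, as probe sets listed for exactly 1 of these genes, which gave 10 probe sets for 10 genes, of 6504 such probe sets for 5656 genes on the array. No probe set listed for several genes included a member. Budding yeast (Saccharomyces cerevisiae) RNA had been hybridized to 11 Affymetrix arrays. For the strain comparison there were 2 arrays of wild type, 2 of a paf1 deletion and 1 of a ctr9 deletion, from liquid cultures in mid-log phase in rich medium (YPD) with 4% glucose. The time course held 6 arrays, 1 at each of 0, 2, 4, 5, 6 and 8 h of doxycycline, from a strain labelled TetO2-Paf1. In that strain a promoter repressed by the drug drives PAF1. The labels gave no further genotype, no mating type and no oxygen level or aeration of the cultures.

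Paf1 and Ctr9 are subunits of the Paf1 complex, an elongation factor that accompanies RNA polymerase II along genes and is needed for several histone marks. The oxygen signal in yeast runs largely through heme, whose synthesis needs oxygen. Heme activates the transcription factor Hap1, and Hap1 drives ROX1 in air. The Rox1 protein then binds the promoters of hypoxic genes and recruits the Tup1-Cyc8 corepressor. When heme falls, ROX1 falls too and its targets are released. DAN and TIR genes encode mannoproteins that replace the aerobic wall proteins Cwp1 and Cwp2, and they further need the activator Upc2.

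Each strain array gave a score per probe set between -10 and 10, on a scale that the labels did not state. A score difference is therefore no fold change, and it can be compressed for abundant transcripts. Each time course array gave a linear signal. Median scores were 4.78 to 5.03 and median signals 108 to 127. The 28 control probe sets with no target in yeast scored from -2.08 to 1.93 and gave signals up to 44.2. PAF1 scored 7.27 and 8.08 in wild type, against 1.00 and 0.47 where it was deleted, and its signal was 272 at 0 h and 119 to 184 later. CTR9 scored 0.00 in the ctr9 deletion and 1.84 to 4.90 on the other 4 arrays. The 1.84 was on wild type 1 and lay within the score range of the controls with no target. Markers of a cells (MFA1, MFA2, STE2 and BAR1) scored 6.24 or more on every strain array in their brightest probe sets. The alpha cell genes STE3, MF(ALPHA)1 and MF(ALPHA)2 scored 3.10 or less. The agglutinin gene SAG1 of that list scored 4.63 and 3.24 in wild type, 8.71 and 7.75 without PAF1, and 8.29 without CTR9. SAG1 passed the test as higher in the paf1 deletion (4.295, SE 0.619, limma adjusted p = 0.0117). Its difference in the ctr9 deletion, with 1 array, was 4.355 (SE 0.758). On the 4 h array the signal from the 5' end of actin was 5.92% of that from the 3' end, against 68.6% to 78.6% on the other 5. The signal from the middle of actin was 56.0% of the 3' signal at 4 h and 60.4% to 69.3% on the others.

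All 10 members were present on the array, but not all were above background. DAN1 scored 1.73 and 0.43 in wild type, 0.41 and 0.94 without PAF1, and 1.90 without CTR9. All 5 of these lay among the controls with no target, so DAN1 was not measurable in the strain set and was below the filter on mean scores (2.84). The other 9 members passed that filter, which used the mean of all 5 arrays. All 10 passed the corresponding signal filter (37.4). In wild type 1 CYC7 also lay among the controls, at 1.91.

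**Figure D1:**
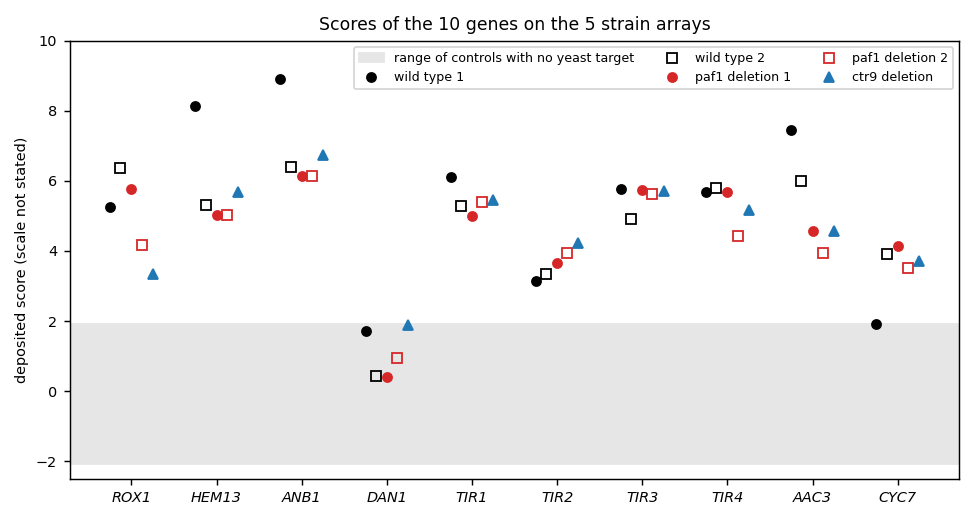
Deposited score (vertical axis, scale not stated) of each of the 10 genes on the 2 wild type, 2 paf1 deletion and 1 ctr9 deletion arrays, 1 point per array. The grey band is the range of 28 controls with no yeast target, -2.08 to 1.93; HEM13 and ANB1 stand high on the wild type 1 array alone, at 8.14 and 8.91, and all DAN1 points lie in the band.

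The first comparison asked whether cells without Paf1 differ in these transcripts. None of the 9 members tested passed the threshold (limma, adjusted p under 0.05), against 111 of 6493 probe sets, or 1.71%, in all. At an unadjusted p under 0.05 there was 1 member, AAC3, where 14.8% of all probe sets reached that level. Of the 9, 6 were lower and 3 higher in the deletion, with a median difference of -0.68 score units. Over all probe sets 54.1% were lower and the median was -0.06. Both paf1 deletion scores lay below both wild type scores in HEM13, ANB1, TIR4 and AAC3, or 4 of 9 members against 24.1% of all probe sets. They lay above in TIR2 alone of the 9, against 19.4%.

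AAC3 encodes the ADP/ATP carrier of the inner mitochondrial membrane that is made at low oxygen. Its scores were 7.45 and 6.01 in wild type, 4.56 and 3.94 without PAF1, and 4.58 without CTR9. All 3 deletion scores lay below both wild type scores, as they did for 17.2% of the probe sets tested. The paf1 deletion mean was 4.25 ± 0.44 (SD, n = 2) against 6.73 ± 1.02 (SD, n = 2), a difference of -2.48 (SE 0.63, 95% interval -3.87 to -1.09). That was the largest difference among the members, and it did not pass (limma adjusted p = 0.0866). Without paf1 deletion replicate 1 AAC3 passed, at -2.79 (limma adjusted p = 0.0226), and over all alternatives the adjusted p ran from 0.0226 to 0.451. The ctr9 deletion differed from wild type by -2.15 (SE 0.77, n = 1 against 2, 95% interval -3.85 to -0.45), which did not pass either (limma adjusted p = 0.398). The deletions themselves differed by -0.33 (95% interval -2.03 to 1.37). PET9, the gene of the main aerobic carrier, scored 8.80 and 7.98 in wild type, 8.26 and 8.30 without PAF1, and 8.19 without CTR9, so its groups overlapped. AAC1, a minor carrier gene, scored 5.48 and 5.35 in wild type against 5.20 and 4.60, and 5.91 in the ctr9 deletion.

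HEM13 encodes coproporphyrinogen III oxidase, an oxygen-using step of heme synthesis, and is a standard target of Rox1. It scored 8.14 and 5.32 in wild type, 5.03 and 5.04 without PAF1, and 5.68 without CTR9. Wild type 1 was high alone, and the other 4 arrays lay between 5.03 and 5.68. The difference of the paf1 deletion from wild type was -1.695 (SE 0.80, limma adjusted p = 0.364). It was -0.285 with wild type 2 as the only wild type array and -3.105 with wild type 1 as the only one, so a single array decides it.

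ANB1 encodes the low-oxygen form of the translation factor eIF5A and is likewise repressed by Rox1. Its scores had the same shape, 8.91 and 6.39 in wild type, 6.13 and 6.13 without PAF1, and 6.74 without CTR9. The paf1 deletion differed by -1.52 (SE 0.73, limma adjusted p = 0.371). That value was -0.26 without wild type 1 and -2.78 without wild type 2. HYP2, the gene of the aerobic form, scored 7.53 and 6.26 in wild type, 6.99 and 7.23 without PAF1, and 7.17 without CTR9. ANB1 and HYP2 encode proteins of closely similar sequence, and how far either probe set also reads the other transcript was not tested. CYC1, which RefSeq places next to ANB1, scored 8.59 and 7.95 in wild type against 8.00 and 7.24 without PAF1, with the groups overlapping.

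The gap between the wild type arrays was itself uneven across the genes. Wild type 1 exceeded wild type 2 by 2.82 in HEM13, 2.52 in ANB1 and 1.44 in AAC3, against a median of 0.28 over all probe sets tested. Only 0.585% of the tested probe sets had a larger gap than HEM13, 0.847% a larger one than ANB1 and 5.90% a larger one than AAC3. After quantile normalization of the 5 arrays these shares were 0.693%, 1.28% and 8.15%. TIR1 and TIR3 were higher in wild type 1 by 0.83 and 0.87, whereas CYC7 was lower by 1.99 and ROX1 by 1.12. Wild type 1 was the highest of the 5 arrays in 5 of the 9 tested members, where 36.7% of all tested probe sets had it highest. Among the 10 other hypoxic genes wild type 1 was higher in 9, by up to 1.99 in the iron transporter gene FET4, and lower by 1.97 in CYB5. Among the 12 oxygen regulators it was higher in 7, with gaps from -1.02 in SUT1 to 2.27 in UPC2. Over all tested probe sets it was higher in 64.0%.

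ROX1 itself scored 5.25 and 6.37 in wild type, 5.77 and 4.17 without PAF1, and 3.33 without CTR9. The paf1 deletion overlapped wild type, with a difference of -0.84 (SE 0.69, limma adjusted p = 0.647). The difference was -0.04 without paf1 deletion replicate 2 and -1.64 without replicate 1, and -1.40 and -0.28 without wild type 1 and 2. The ctr9 deletion array was the lowest of the 5, as in 12.6% of tested probe sets. It differed from wild type by -2.48 (SE 0.84, n = 1 against 2, 95% interval -4.34 to -0.62), which did not pass (limma adjusted p = 0.373). The paf1 deletion lay above the ctr9 deletion by 1.64 (95% interval -0.22 to 3.50, limma adjusted p = 1). In the ctr9 deletion, where ROX1 scored lowest, HEM13 and ANB1 lay 0.36 and 0.35 above wild type 2 and 2.46 and 2.17 below wild type 1.

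CYC7 encodes the low-oxygen isoform of cytochrome c. It scored 1.91 and 3.90 in wild type, 4.15 and 3.52 without PAF1, and 3.70 without CTR9, with 1 of the 3 deletion scores just above the wild type range. The paf1 deletion differed by 0.93 (SE 0.80, limma adjusted p = 0.672), or by -0.065 without wild type 1, whose score was not above the controls.

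Differences between strains were small in the TIR genes. TIR2 was the only member with all 3 deletion scores above both wild type scores, a pattern that 15.8% of tested probe sets shared. It scored 3.14 and 3.35 in wild type, 3.67 and 3.95 without PAF1, and 4.22 without CTR9, with differences from wild type of 0.565 (SE 0.64, limma adjusted p = 0.772) and 0.975 (SE 0.78, limma adjusted p = 0.800). TIR4, which RefSeq places next to TIR2, went the other way. It scored 5.69 and 5.79 in wild type, 5.68 and 4.44 without PAF1, and 5.16 without CTR9, so the groups were separated by only 0.01. TIR1 ranged from 5.00 to 6.11 and TIR3 from 4.90 to 5.77 over the 5 arrays, and the groups overlapped in both.

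In the ctr9 deletion 0 of the 9 members passed, against 2 of 6493 probe sets (0.0308%) in all, and 2 members, ROX1 and AAC3, had an unadjusted p under 0.05, where 9.64% of all probe sets did. In the direct comparison of the deletions 0 of 9 passed, against 4 of 6493 (0.0616%). There 0 members had an unadjusted p under 0.05 in limma, against 2.93% of all probe sets. Both deletions were compared with the same wild type arrays, so their differences are not independent of each other.

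**Figure D2:**
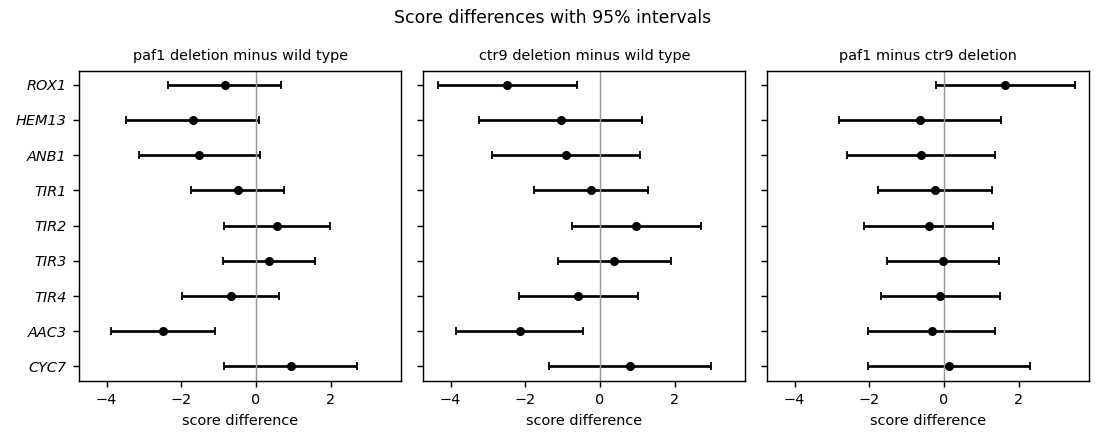
Score difference (horizontal axis) of the 9 tested genes for the paf1 deletion minus wild type, the ctr9 deletion minus wild type and the paf1 minus the ctr9 deletion, with 95% intervals from limma that are not adjusted for the number of probe sets. AAC3 lies lowest in the first panel, at -2.48, and ROX1 in the second, at -2.48.

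The time course asked which transcripts change after doxycycline is added to repress PAF1. The PAF1 signal itself went from 272 at 0 h to 119 at 2 h and was 139 to 184 from 4 h on, so its RNA was lowered only in part. None of the 10 members had a slope over the 6 arrays that passed, and neither did any other of the 6492 probe sets tested (0 called, 0%, limma adjusted p = 0.557 at the lowest). At an unadjusted p under 0.05 limma gave 2 members, TIR3 and CYC7, both with positive slopes, where 8.63% of all probe sets reached that level and 5.75% did so with a positive slope. Of the 10 slopes 7 were negative, whereas 43.1% of all slopes were. The median slope of the members was -0.0081 log2 units per hour, against 0.010 over all probe sets. The slopes of ROX1, HEM13, ANB1, DAN1, TIR4 and AAC3 changed sign between the alternative settings. All 5 later signals lay above 0 h in TIR3 and CYC7, as in 25.9% of all probe sets, and below it in DAN1, TIR1, TIR4 and AAC3, as in 18.8%. Each time had 1 array and no untreated culture was sampled beside it, so doxycycline, loss of Paf1 and growth over the 8 h cannot be told apart.

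CYC7 had the widest range of the members. Its signal was 41.0 before doxycycline, then 203, 89.3, 120, 256 and 202 in order of time. Every later array was at least 2.18-fold above 0 h, and the highest was 6.24-fold above it. All 5 later signals were at least 1.5-fold above 0 h in 1 of the 10 members, CYC7, and in 3.59% of all probe sets tested. The 0 h signal was no higher than the highest control with no target on any array, 44.2, so the folds start from a level near background. The slope was 0.24 log2 units per hour (SE 0.097, limma adjusted p = 0.563). CYC1, the aerobic cytochrome c gene, had signals of 3437 at 0 h and 4469 to 5672 later, so every later array was above 0 h by 0.38 to 0.72 on the log2 scale. Relative to CYC1, CYC7 was above its 0 h value by 0.56 log2 units at 4 h and 2.22 at 6 h, the lowest and highest of the 5 times.

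TIR1 encodes a wall mannoprotein that is also known as cold-shock induced. Its signal was 1925 before doxycycline, then 1103, 767, 955, 1089 and 976 in order of time. All later arrays were lower, by at least 1.5-fold, a pattern found in 1 of the 10 members and in 1.68% of all probe sets tested. The signal at 8 h was 0.507 of that at 0 h, and the arrays from 2 h to 8 h showed no further ordered decline. Its slope was -0.10 log2 units per hour (SE 0.050, limma adjusted p = 0.597), and it was -0.0012 without the 0 h array.

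TIR3, another wall mannoprotein gene, went in the opposite direction. It gave 688.5 before doxycycline, then 703, 970, 1049, 1017 and 1134.5 in order of time. The arrays from 4 h on were all above the first pair, and the last was 1.65-fold above 0 h. TIR3 had the smallest unadjusted p of the members, with a slope of 0.10 log2 units per hour (SE 0.028, 95% interval 0.036 to 0.17, limma adjusted p = 0.557). The slope lay between 0.090 and 0.12 under all 12 alternatives tried, none of which passed.

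The remaining wall genes did not share a direction. TIR2 signals were 424 to 780, with 4 of 5 later arrays above the 550.5 of 0 h. TIR4 gave 216 before doxycycline, then 126, 121, 157, 149 and 191 in order of time, so all later arrays were lower but the last was 0.885 of the first. DAN1 gave 74.9 at 0 h and 34.3 to 57.2 later, close to the controls with no target. DAN4, the neighbour of DAN1, went from 79.7 at 0 h to 96.6 to 131 later, and the aerobic wall gene CWP1 from 2409 to between 1940 and 4024. AAC3 signals were 185 before doxycycline, then 132, 135, 85.6, 149 and 173.5 in order of time. The 5 h array was the low one, and by 8 h the signal was 0.937 of 0 h. PET9 stayed between 4952 and 5689.

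**Figure D3:**
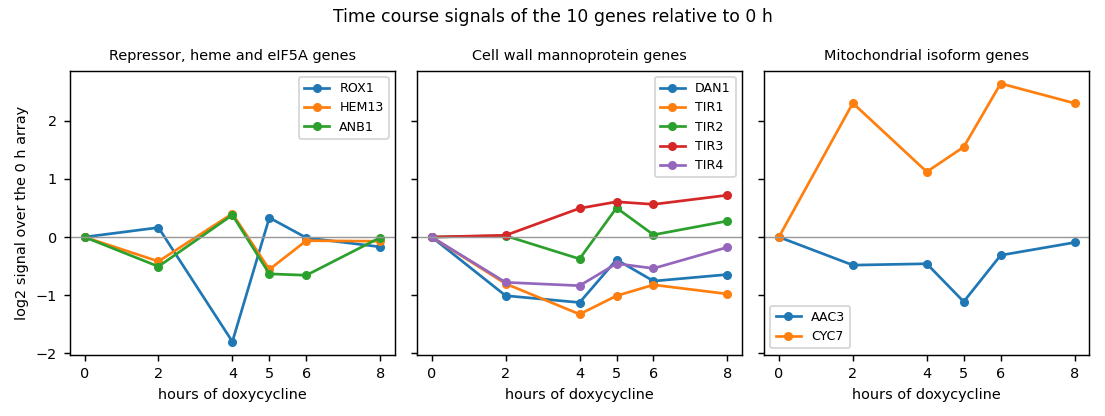
Signal of each gene relative to the 0 h array (vertical axis, log2) against hours of doxycycline, 1 array per time, with the genes grouped by role. CYC7 lies above 0 h at every later time, TIR1, TIR4, DAN1 and AAC3 below it, and ROX1 is low at 4 h alone.

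ROX1 was lowest, and its classical targets HEM13 and ANB1 highest, on a single array. ROX1 signal was 164 before doxycycline, then 183, 47.0, 206, 162 and 146 in order of time. The 4 h value was 3.10-fold under the lowest of the other 5 arrays, and 3.11% of all tested probe sets were at least 3-fold under on that array. HEM13 was 519 before doxycycline, then 388, 686, 352.5, 497 and 493.5 in order of time. Its 4 h signal was the highest of the 6, 1.32-fold above the next.

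ANB1 gave 484 before doxycycline, then 341, 630, 312, 307 and 482 in order of time. Its 4 h signal was again the highest, 1.30-fold above the next, and 24.3% of all tested probe sets were highest at 4 h. Of the 10 other hypoxic genes 1, FET4, was highest at 4 h (655 against 216.5 to 349 at the other times), 3 were lowest there and 6 lay inside the range of the other arrays. The remaining members were not high at 4 h. TIR1, TIR2, TIR4 and DAN1 had their lowest signal at 4 h, along with ROX1, where 18.5% of all probe sets were lowest, and TIR3, AAC3 and CYC7 lay inside the range of the other arrays. The 4 h array is the one whose actin signal was low at the 5' end, and its spike-in controls were 4.34-fold those of 0 h. The spike-in controls were also 3.93-fold at 6 h, where the actin ratio was 78.6%, ROX1 was 162 and HEM13 was 497. The part of the RNA quality of the 4 h array in these values was not tested.

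The array at 5 h had the highest ROX1 signal of the 6, 206 against 183 at 2 h, and the lowest HEM13 and AAC3 signals. TIR2 was also at its highest at 5 h, at 780. The share of all probe sets highest or lowest at 5 h was not counted. ANB1 was 312 there and lowest at 6 h, at 307.

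**Figure D4:**
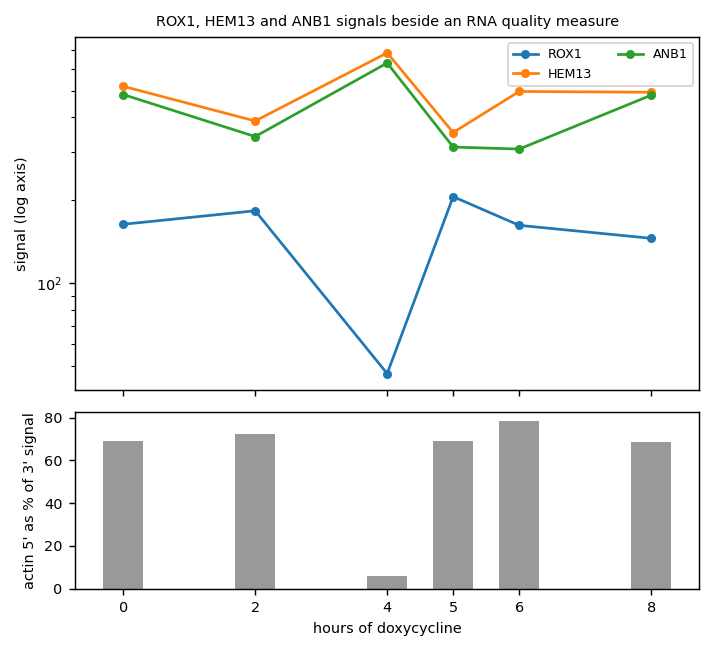
Upper panel, signals of ROX1, HEM13 and ANB1 on a log axis against hours of doxycycline; lower panel, the actin 5' signal as a percentage of the 3' signal on the same arrays. At 4 h ROX1 is at 47.0 and HEM13 and ANB1 are at their highest, on the array whose actin ratio is 5.92%.

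Likeness to other genes was measured as the mean of 2 Pearson correlations, over the 6 log2 signals and over the 5 scores, among 5254 probe sets. The arrays are few and shared by every gene compared, so the names are a description. ROX1 was most like FAS1, a fatty acid synthase gene (0.960, in 1 of its probe sets), WHI5, a G1 inhibitor gene (0.959), and PRM10 (0.933). FAS1 and WHI5 had low signals at 4 h as well, 13.7 and 4.8. HEM13 was most like URB2 (0.970), the proteasome gene RPN10 (0.951) and LEM3 (0.949). TIR1 was most like MCM3, a replication helicase gene (0.973), CDC60, a leucyl-tRNA synthetase gene (0.969), and the phosphate transporter gene PHO87 (0.916).

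The wider oxygen pathway was followed through 63 genes in 6 lists, of which 57 had a probe set of their own. Among the 12 oxygen regulators 0 passed in any comparison. In the paf1 deletion 10 of 12 were lower, where 54.1% of all probe sets were, with a median of -0.75 against -0.06. SUT1, a regulator of sterol uptake, scored 5.98 and 7.0 in wild type, 4.36 and 4.05 without PAF1, and 5.18 without CTR9. Its paf1 and wild type groups did not overlap (difference -2.285, SE 0.57, limma adjusted p = 0.0859). Both paf1 deletion scores lay below both wild type scores in 24.1% of tested probe sets. UPC2 scored 7.22 and 4.95 in wild type, against 3.49 and 4.86 without PAF1, a difference of -1.91 (SE 0.78, limma adjusted p = 0.286). It was -0.775 without wild type 1, -3.045 without wild type 2 and -2.595 without paf1 deletion replicate 2. Each of these fits left 1 array in a group, so only the difference is given. In the ctr9 deletion 8 of 12 were lower, where 46.3% of all probe sets were. MGA2, an activator of the desaturase gene OLE1, scored 8.43 and 6.37 in wild type and 5.64 without CTR9 (-1.76, SE 0.83, limma adjusted p = 0.532), or -0.73 without wild type 1 and -2.79 without wild type 2.

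HAP1 had 3 probe sets, and in each of them all 3 deletion scores lay below both wild type scores, as in 17.2% of tested probe sets. The 3 probe sets read the same arrays, and in 1 of them the groups were barely apart, at 9.84 against 9.85. In the probe set with no family mark HAP1 scored 8.66 and 6.66 in wild type, 5.46 and 5.28 without PAF1, and 6.33 without CTR9, a paf1 difference of -2.29 (SE 0.66, limma adjusted p = 0.125). The 2 family probe sets of HAP1, which by their suffix may read related sequences, differed by -0.15 and -0.725 in the paf1 deletion and by -0.175 and -0.42 in the ctr9 deletion, and did not pass. This gene was singled out after its values were seen. In the time course the slope was negative for 8 of 10 tested regulators, where 43.1% of all slopes were, and none of them passed. SUT1 gave 183 at 0 h and 99.0 to 115 later, and IXR1, an HMG-domain regulator gene of hypoxic transcription, 877.5 at 0 h and 509 to 548 later. IXR1 was singled out after its values were seen. Both were thus at least 1.5-fold below 0 h on every later array, as were 2 of the 54 pathway genes tested and 1.68% of all probe sets.

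Among the 10 other hypoxic genes 0 passed in any comparison, and the median difference was -0.285 without PAF1 and 0.0425 without CTR9. COX5B, the low-oxygen isoform of a cytochrome c oxidase subunit, had time course signals of 102 before doxycycline, then 378, 340, 138.5, 312 and 255 in order of time. Like CYC7, it was above 0 h at every later time, by 1.33 log2 units at 8 h, with a dip at 5 h. Its aerobic partner COX5A was 2639 at 0 h and 2560 to 3784 later. HMG2, the low-oxygen isoform of HMG-CoA reductase, stayed between 769 and 1020, while the aerobic HMG1 went from 4795.5 to between 2454 and 4118. SMF3, a vacuolar metal transporter gene, went from 908 to 1783 at 8 h (slope 0.10 log2 units per hour, SE 0.033, limma adjusted p = 0.557).

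**Figure D5:**
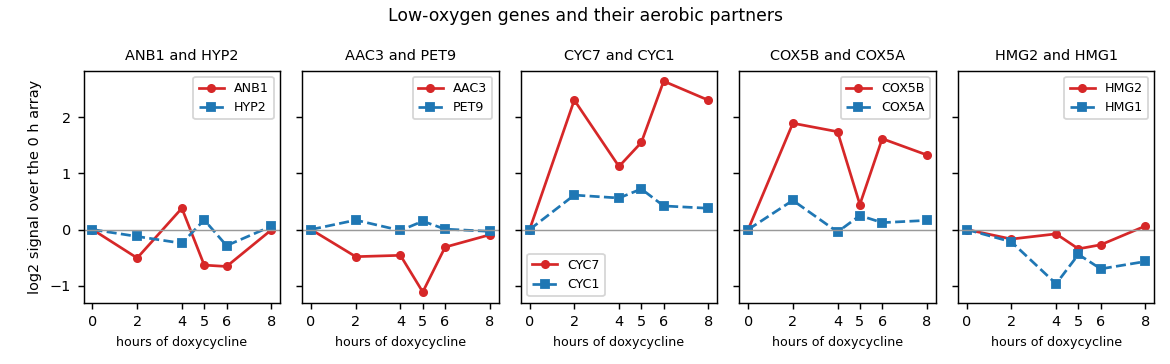
Signal relative to the 0 h array (vertical axis, log2) against hours of doxycycline for 5 pairs of a low-oxygen gene (solid) and its aerobic partner (dashed), 1 array per time. CYC7 and COX5B lie above 0 h at all later times, by 2.30 and 1.33 at 8 h, while ANB1, AAC3 and HMG2 end within 0.10 of 0 h.

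Of the 18 other anaerobic genes 12 had a probe set of their own and 11 were tested, with 0 past the threshold in any comparison. The cell wall gene PAU3, of the seripauperin family, scored 2.41 and 2.65 in wild type, 3.78 and 3.62 without PAF1, and 3.6 without CTR9 (paf1 difference 1.17, SE 0.69, limma adjusted p = 0.477). Its probe set is a family probe set and may read other PAU genes.

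Of the 6 tested other heme synthesis genes 0 passed. The seventh of the list, HEM3 (porphobilinogen deaminase), scored 3.73 and 4.23 in wild type, 1.45 and 0.79 without PAF1, and 3.19 without CTR9, so its mean of 2.68 was below the filter. Both scores without PAF1 lay among the controls with no target, and with no filter HEM3 differed by -2.86 (SE 0.69, limma adjusted p = 0.110). HEM4, uroporphyrinogen III synthase, scored 5.69 and 5.63 in wild type, 4.47 and 3.17 without PAF1, and 3.12 without CTR9. Its differences were -1.84 (SE 0.63, limma adjusted p = 0.204) and -2.54 (SE 0.78, limma adjusted p = 0.299). HEM14, the next enzyme after Hem13, differed by 1.20 in the paf1 deletion (SE 0.56, limma adjusted p = 0.350).

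Of the 8 heme-activated genes 0 passed. In each deletion 6 were higher, where 45.6% of all probe sets were higher without PAF1 and 53.5% without CTR9, against the same wild type arrays. CYB2, the lactate dehydrogenase cytochrome b2 gene, scored 2.30 and 2.64 in wild type, 4.79 and 5.59 without PAF1, and 4.86 without CTR9. Its differences were 2.72 (SE 0.63, limma adjusted p = 0.0641) and 2.39 (SE 0.77, limma adjusted p = 0.330). CTT1, cytosolic catalase, differed by 2.55 in the paf1 deletion (SE 0.70, limma adjusted p = 0.107). In the ctr9 deletion CTT1 scored 3.44, between the wild type scores of 2.30 and 3.50 (difference 0.54, SE 0.86). The paf1 deletion difference was 3.12 for CYB2 without paf1 deletion replicate 1 and 3.12 for CTT1 without replicate 2. Each of these fits left 1 paf1 deletion array, so only the difference is given. In the time course CYB2 was 47.0 at 0 h and 76.5 to 129 later, and CTT1 was 23.5 at 0 h and 66.4 to 132 later. Both also answer to glucose or stress in yeast. They were the 2 of 54 pathway genes at least 1.5-fold above 0 h on every later array, or 3.70%, where 3.59% of all probe sets were. The 0 h signal of CTT1 was below the highest control with no target on that array, 39.6, and that of CYB2 just above 44.2, so both folds start near background. Of the 8 aerobic partners 0 passed in any comparison.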

How the data were processed

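Values were used as deposited. The time course columns hold deposited linear signal intensities, on a common level in all arrays judging from the values, and the strain columns hold a deposited score whose making was not given in the sources used here. Per the labels, biotinylated cRNA from total RNA was hybridized, 1 array per sample. Nothing said whether replicates were separate cultures, so p-values measure only the spread between arrays.

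The design had left the strain scale open, so scores were fitted without a logarithm. Signals under 5.6, the 10th percentile, were set to it before log2. The 60 control probe sets were left out of the tests, as were those whose mean was below the 30th percentile (score 2.84, signal 37.4). Linear models were fitted with limma 3.58.1 (R 4.3.3; lmFit, eBayes with a trend), on 5 strain arrays with 2 residual degrees of freedom and on 6 time course arrays as a slope with 4. The spread of the single ctr9 array was taken from the groups that had replicates. Tests were two-sided and Benjamini-Hochberg adjusted over all probe sets tested. The fits were also run on simulated data with changes larger than those of any member, so that run does not measure power for the members. Members, lists and naming rules were chosen with earlier results of these data known. All 10 members were described. Of each list, up to 3 genes past the threshold or else the 2 with the largest difference were eligible, by the probe set with the highest mean, and partner genes were named beside members. Gene names came from the platform annotation and neighbours from RefSeq R64. Alternatives covered the filter, floor, pseudocount, quantile normalization, variance trend, each array left out and a replicate block. The number of arrays limits the precision.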

Additional observations from a re-analysis of the deposited data

How the results depend on the processing

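No member passed in the 4 comparisons under the filters, floors, normalization or variance model tried, with 2 exceptions for AAC3 in the paf1 deletion. It passed without paf1 deletion replicate 1 (difference -2.79, limma adjusted p = 0.0226), where the wild type pair alone gives the spread, and with a replicate block (-2.48, limma adjusted p = 0.0257), each time as 1 member of 9. With the block SUT1, CYB2 and, in 1 of its probe sets, HAP1 of the wider pathway passed too. Wider pathway fits without 1 of the strain arrays were described by the difference only, without stating whether they passed. Replicate numbers do not pair the samples by the labels, and their deviations correlated at 0.008 across probe sets. Leaving out 1 strain array gave 0 to 1 members in the paf1 deletion and 0 in the other strain comparisons, and leaving out 1 time gave 0. All-probe-set counts moved more. The 111 of the paf1 deletion became 39 to 224 under other settings, 0 without either wild type array and 185 without either paf1 deletion array. The 2 of the ctr9 deletion became 0, or 107 and 104 without paf1 deletion replicate 1 and 2. The 4 between the deletions became 2 to 5, 0 without either wild type array, and 14 or 10.

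Directions changed only among differences that did not pass. TIR3 between the deletions became 0.055 with quantile normalization. Leaving out 1 array each gave these ranges. In the paf1 deletion TIR3 ranged from -0.085 to 0.785 and CYC7 from -0.065 to 1.925. In the ctr9 deletion HEM13 ranged from -2.46 to 0.36, ANB1 from -2.17 to 0.35, TIR1 from -0.66 to 0.17, TIR3 from -0.05 to 0.82 and CYC7 from -0.20 to 1.79. Between the deletions TIR3 ranged from -0.10 to 0.03, TIR4 from -0.72 to 0.52 and CYC7 from -0.18 to 0.45. Slopes in log2 units per hour ranged from -0.035 to 0.040 for ROX1, -0.023 to 0.029 for HEM13, -0.077 to 0.023 for ANB1, -0.080 to 0.073 for DAN1, -0.067 to 0.105 for TIR4 and -0.095 to 0.066 for AAC3. The 1.5-fold counts of TIR1 below and CYC7 above 0 h stayed at 1 and 1 without the 4 h array, a setting chosen after seeing the data. Signals near 44.2 and scores near 1.93 cannot be told from background.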
